A study of Mus musculus with 6 samples.

Results

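The mucin and trefoil factor genes examined here were Muc1, Muc2, Muc4, Muc5ac, Muc6, Muc13, Muc20, Tff1, Tff2 and Tff3, which are 10 of the 19938 genes tested. Each gene was taken by its symbol from the rows of the array that carry a single gene name, and each of the 10 had exactly 1 such row. RNA came from mouse pancreata at E13.5 of gestation, as 3 pools labelled wild type and 3 pools labelled beta-catenin activated (activated pools), each pool made of 3 pancreata and hybridized to 1 Affymetrix Mouse Gene 1.0 ST array. Activated pools carried Pdx1-Cre and 1 copy of the Ctnnb1 allele with a floxed exon 3. The controls are labelled wild type and no other allele is given for them. Cre is driven by the Pdx1 promoter, so the allele can be recombined in the epithelium of the pancreatic primordium and its descendants. In activated pancreata the study also found cells with pancreatic factors at normal levels and without nuclear β-catenin. It proposes inefficient excision of the allele as the likely reason, so epithelial values may average over cells with and without recombination. The pools also held mesenchyme, vessels, nerves and blood cells in which the allele is not recombined. In such whole tissue, fewer cells of a type and less RNA per cell cannot be told apart.

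Mucins are large proteins whose serine- and threonine-rich stretches carry dense O-linked sugar chains. Muc1, Muc4, Muc13 and Muc20 are anchored in the apical membrane of epithelial cells, whereas Muc2, Muc5ac and Muc6 are secreted and form gels. Trefoil factors are small, disulfide-rich peptides that are secreted together with the gel-forming mucins. In the adult gut Tff1 accompanies Muc5ac in surface cells of the stomach, Tff2 accompanies Muc6 in gastric neck and gland cells, and Tff3 accompanies Muc2 in intestinal goblet cells. In the developing pancreas Muc1 lines the lumen of the branching epithelium. The comparison asks which of these genes moved when β-catenin was stabilized in the pancreatic epithelium.

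Muc1 fell, and none of the other 9 genes passed the test or had an unadjusted p under 0.05. The 3 wild type pools had Muc1 array values of 9.86, 10.16 and 9.50 (log2) and the 3 activated pools 6.69, 6.96 and 6.95. Every activated pool lay below every wild type pool, and the gap between the groups was wider than the spread within either of them. The mean was 9.84 ± 0.33 (SD, n = 3) in wild type and 6.87 ± 0.15 (SD, n = 3) in activated pools, a 7.86-fold decrease (log2 change -2.98, standard error, SE, 0.16, limma adjusted p = 1.56e-06). Over all genes tested 7.53% were lower and 6.59% were higher at an adjusted p under 0.05, 14.1% in either direction, so 1 lower gene among 10 is a share near that background. The groups did not overlap for 1 of the 10, beside 30.9% of all genes. Muc1 is also among the genes that the study itself listed from these arrays, and its decrease is no independent evidence for the family. By staining at E13.5, the study also reported loss of Muc1 protein from the apical side of dilated epithelium. E-cadherin and laminin kept their localization there. The median log2 change of the 10 genes was 0.04, beside 0.03 over all genes tested.

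**Figure D1:**
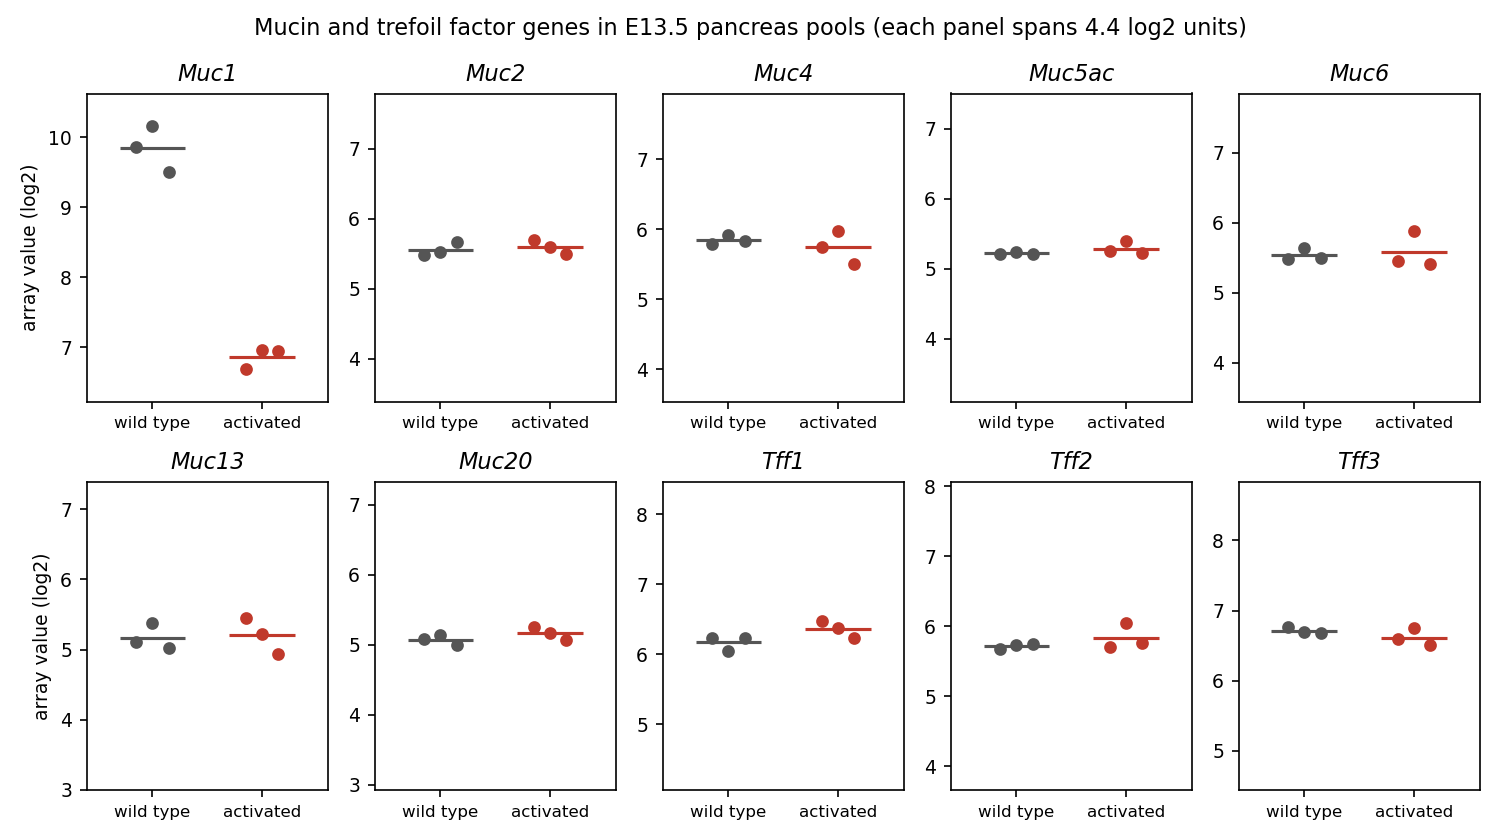
Array values (log2, vertical axes) of the 10 mucin and trefoil factor genes in 3 wild type (grey) and 3 activated (red) pools, with 1 point per pool and horizontal bars at group means. All panels span the same log2 range, and the groups are apart for Muc1, from 9.84 to 6.87 on average, and overlap for the other 9 genes.

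The sequence before the start of Muc1 is shown because this is the member that moved, and that of Muc2 as an intestinal mucin gene of the same family that did not pass the test. Both are the 250 bases before the RefSeq start of the gene in GRCm38.p6, on the plus strand, chr3:89228806-89229055 for Muc1 and chr7:141690090-141690339 for Muc2. Capitals mark the letters TATAAA, as in a TATA box, and those of a GC box. The GC box was searched as GGGCGG and reads as its reverse complement where it lies on the minus strand, as in Muc2. Only exact letters were marked, wherever they fell, so tataag near the Muc2 start is not. A match far from the start, as in Muc2, need not be a TATA box.
Muc1: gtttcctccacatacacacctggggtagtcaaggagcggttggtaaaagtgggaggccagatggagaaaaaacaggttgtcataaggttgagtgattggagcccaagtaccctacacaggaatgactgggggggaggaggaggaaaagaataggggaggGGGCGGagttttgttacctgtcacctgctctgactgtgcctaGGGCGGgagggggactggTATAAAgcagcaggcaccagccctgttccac
Muc2: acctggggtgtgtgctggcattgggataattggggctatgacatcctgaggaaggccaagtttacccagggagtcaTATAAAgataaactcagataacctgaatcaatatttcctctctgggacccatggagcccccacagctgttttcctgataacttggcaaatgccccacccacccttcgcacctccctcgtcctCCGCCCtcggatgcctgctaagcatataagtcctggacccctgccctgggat
In Muc1 the TATA box begins 31 bases before the start and the 2 GC boxes begin 49 and 91 bases before it. In Muc2 the capitals begin 174 bases before the start for TATAAA and 52 bases before it for the GC box. The third motif searched was CTTTGA, the core bound by the TCF and LEF proteins through which β-catenin acts on genes, on both strands. It was in neither of these windows. Of all 32851 windows of this length, 12.4% hold TATAAA, 32.7% GGGCGG and 13.8% CTTTGA on either strand. The table holds 7 windows of 6 of the 10 genes, those of Muc1, Muc2, Muc4, Muc6, Muc13 and Muc20, and CTTTGA occurred in 1 of them, a further start of Muc13, where it was present 2 times. Such matches describe letters in these windows and are no evidence of binding.

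The other membrane mucins kept values that overlapped between the groups. Muc4, which can associate with the receptor Erbb2, had 5.78, 5.91 and 5.82 (log2) in wild type and 5.75, 5.97 and 5.50 in activated pools, and the activated pools thus held both the highest and the lowest value. Its log2 change was -0.10 (SE 0.12, 95% interval -0.37 to 0.18). Muc13, a mucin of the intestinal surface, had 5.10, 5.38 and 5.02 in wild type and 5.45, 5.23 and 4.94 in activated pools, with a log2 change of 0.04 (95% interval -0.29 to 0.36). Muc20, which binds the hepatocyte growth factor receptor Met, had 5.08, 5.14 and 4.99 in wild type and 5.26, 5.17 and 5.06 in activated pools. Here 2 of the 3 activated pools lay above all wild type pools, and the log2 change was 0.09 (95% interval -0.12 to 0.30). The adjusted p of these 3 genes from limma was 0.637 to 0.919.

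The gel-forming mucins gave changes of less than 0.1 on the log2 scale. In newborn mutant mice the study found cells with Muc5ac and Muc2 protein, a later stage and another measure than RNA at E13.5. Muc2 of intestinal goblet cells had 5.48, 5.52 and 5.66 in wild type pools and 5.70, 5.59 and 5.49 in activated pools, which span nearly the same range (95% interval of the log2 change -0.18 to 0.26). Muc5ac of the gastric surface had 5.21, 5.24 and 5.21 in wild type pools and 5.25, 5.39 and 5.22 in activated pools (95% interval -0.13 to 0.27). Its wild type pools were close together, with an SD of 0.01 (n = 3), and 2 activated pools lay above them. Its log2 change of 0.07 was 0.017 without activated replicate 2. Muc6 of gastric glands had 5.48, 5.63 and 5.49 in wild type pools and 5.45, 5.88 and 5.41 in activated pools (95% interval -0.25 to 0.34). The single high value is that of activated replicate 2, and without this pool the log2 change of Muc6 was -0.10, with the opposite sign.

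Among the trefoil factors Tff1, the gastric surface peptide, had the largest change, and it did not pass the test. Tff1 had 6.24, 6.04 and 6.23 in wild type pools and 6.48, 6.37 and 6.23 in activated pools, with 2 activated pools above all wild type pools and the other within their range. The log2 change was 0.19 (SE 0.10, 95% interval -0.04 to 0.42, limma adjusted p = 0.309). When limma weighted the arrays by their quality, Tff1 passed at a log2 change of 0.26 (adjusted p = 0.0381), and over the 17 alternatives in which it was tested its adjusted p ranged from 0.0381 to 0.644. Tff2 of gastric neck cells had 5.68, 5.73 and 5.75 in wild type pools and 5.70, 6.05 and 5.77 in activated pools, of which only replicate 2 stood clearly above the wild type pools. Its log2 change was 0.12 (95% interval -0.12 to 0.36), and 0.016 without that pool. Tff3 of goblet cells had 6.77, 6.69 and 6.67 in wild type pools and 6.59, 6.75 and 6.50 in activated pools. Both low values are those of activated pools, and the log2 change was -0.10 (95% interval -0.31 to 0.12), which became -0.17 without activated replicate 2 and -0.040 without activated replicate 3.

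**Figure D2:**
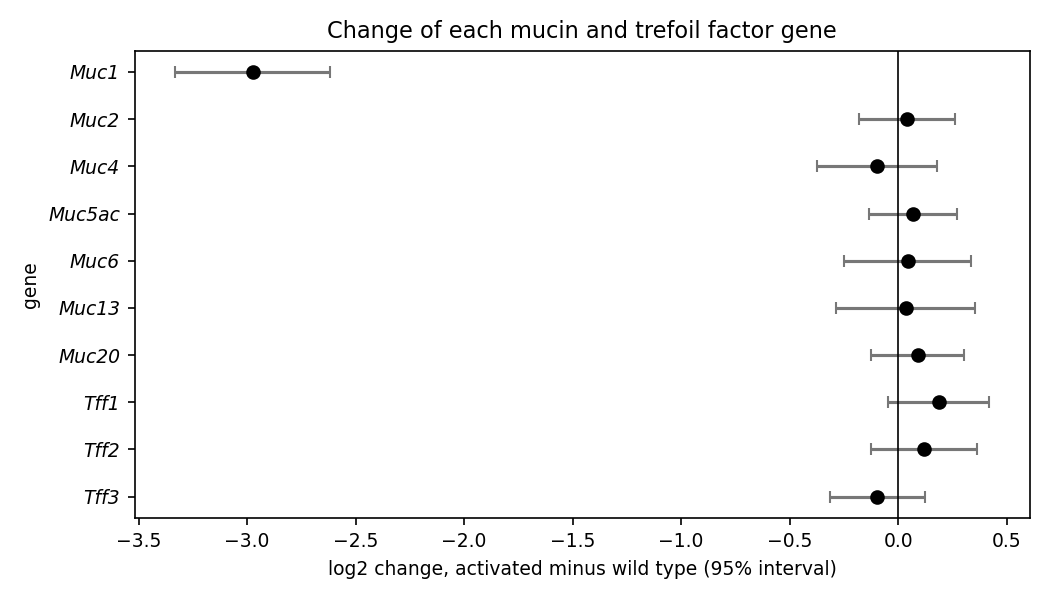
Log2 change (horizontal axis, activated minus wild type) of each of the 10 genes, with points at the estimate and bars at the 95% interval from limma, n = 3 pools per group. The interval of Muc1 runs from -3.33 to -2.62, and those of the other 9 genes include 0.

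For the 9 genes that did not pass, the 95% intervals of the log2 change all lay between -0.37 and 0.42, which corresponds to folds between 0.772 and 1.34. These bounds hold for array values. Muc5ac, Muc13 and Muc20 have means in the lower quartile of all genes tested, only Muc1 has a mean above the median, and for dim rows a log2 difference understates a difference in RNA. No detection call was used, so whether these rows were above the array's background is not known. Activated replicate 2 had the highest value of all 6 arrays for 4 of the 10 genes (Muc4, Muc5ac, Muc6 and Tff2). The same array was highest for 46.4% of the 4985 genes at or below the lower quartile and for 24.2% of all genes tested, and its mean over those dim genes was 4.50 (log2), against 4.29 to 4.38 on the other arrays. The part of this in the values of the dim members was not tested.

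Several of these genes lie side by side on the chromosome. In the RefSeq annotation of GRCm38.p6, which was used here for the order of genes, Muc6, Muc2 and Muc5ac follow each other with Muc5b on chromosome 7, Muc4 lies next to Muc20 on chromosome 16, and Tff3, Tff2 and Tff1 follow each other on chromosome 17. Muc5b, the gel-forming mucin of the airways, did not pass either, at a log2 change of 0.03 (SE 0.09). None of the 4 nearest neighbours of Muc1 on chromosome 3 was lower past the test. Thbs3, a thrombospondin gene directly before Muc1, rose from 6.99 ± 0.16 (log2, SD, n = 3) to 7.44 ± 0.06 (log2 change 0.44, SE 0.10, limma adjusted p = 0.0171). Trim46, directly after Muc1, had a log2 change of -0.23 (SE 0.09, adjusted p = 0.124), and the next genes out, Mtx1 and Krtcap2, had changes of 0.25 and 0.02. Of 19 tested neighbours that are not members, taken as the 2 nearest protein-coding genes on either side of each, 3 were higher (Thbs3, Tfrc at 0.43 and Itgb5 at 0.44) and 1 was lower (Abcg1 beside Tff3, at -0.56).

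The 3 genes whose profile over the 6 arrays was nearest to that of Muc1 were Gm16551, Mat1a and Nkx2-2, at root mean square distances of 0.09, 0.14 and 0.17 (log2) after each gene was centred on its own mean. Nkx2-2 is a transcription factor of the pancreatic endocrine lineage and Mat1a encodes the liver-type enzyme that makes S-adenosylmethionine. Gm16551, a predicted gene, had values of 10.22, 10.29 and 9.90 in wild type pools and 7.03, 7.26 and 7.27 in activated pools. All 3 share with Muc1 the large difference between genotypes, and the order over 6 arrays holds little beyond it.

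The decrease of Muc1 was set beside the genes of the epithelium that carries it. Of 19 general epithelial markers 16 fell, 0 rose and 3 stayed short of the threshold, with a median log2 change of -0.79, against 0.03 over all genes. Their largest decreases on the log2 scale were those of the cytokeratin gene Krt8 (-1.84), the E-cadherin gene Cdh1 (-1.68), the epithelial transcription factor gene Elf3 (-1.37) and the claudin gene Cldn3 (-1.30). The mean of the 19 markers ranged from 9.75 to 9.99 (log2) in wild type and from 8.96 to 9.07 in activated pools. Taken relative to this mean on the same array, Muc1 was at 0.04, 0.18 and -0.25 in wild type pools and at -2.38, -1.996 and -2.11 in activated pools. Relative Muc1 was thus lower in 3 of 3 activated pools than in any wild type pool, a difference of -2.15 on the log2 scale, or 4.44-fold (exact permutation test, two-sided, p = 0.1, the smallest that 3 pools against 3 allow). The permutation test was run only for Muc1, the member already past the limma test on the same arrays. Its p-value is therefore no further evidence, and the comparison gives the size of the difference.

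**Figure D3:**
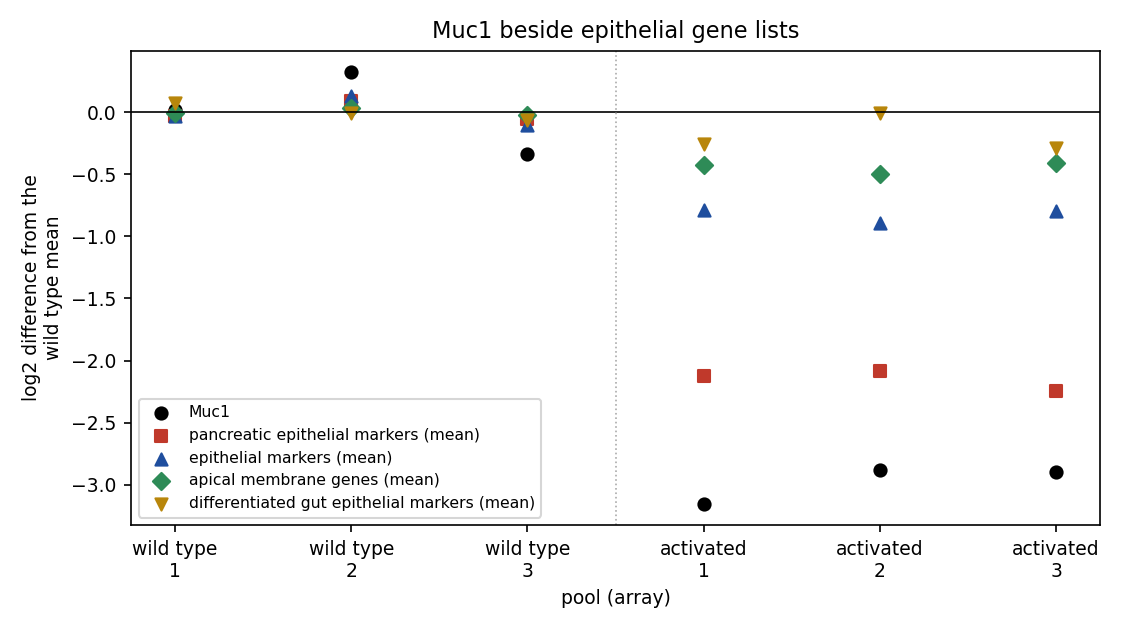
Log2 difference from the wild type mean (vertical axis) on each of the 6 arrays (horizontal axis) for Muc1 and for the mean of 4 gene lists, with 1 point per array. In the activated pools Muc1 lies lowest, below the mean of the pancreatic epithelial markers, and the means of the general epithelial markers and apical membrane genes lie nearer to 0.

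Genes of the apical membrane, where Muc1 protein sits, were lower as well. Of 11 such genes 7 fell, 0 rose and 4 stayed short of the threshold, with a median log2 change of -0.62. Rab25, a GTPase of apical recycling that is also among the epithelial markers, fell from 10.04 ± 0.27 to 8.93 ± 0.16 (log2, SD, n = 3), a log2 change of -1.11 (SE 0.14, limma adjusted p = 0.00055). Slc9a3r1, a scaffold that links apical membrane proteins to ezrin, had a log2 change of -0.78 (SE 0.10), and the polarity genes Prkcz and Pard6b had changes of -0.71 (SE 0.10) and -0.68 (SE 0.09), all past the test. Prom1, an apical membrane glycoprotein gene, had 8.15, 8.51 and 8.02 in wild type and 8.26, 8.20 and 8.24 in activated pools, which overlap. Of 12 pancreatic epithelial markers 10 were lower, with a median of -2.36, so that the decrease of Muc1 was larger than the median of this list as well. It was within the range of the list. Pdx1 (-4.16), Cpa1 (-3.86), Nkx2-2 (-3.16) and Onecut1 (-3.08) fell further than Muc1, and the others fell less or did not pass. Some of these 12 are genes that the study listed from the same arrays, so this count is no independent evidence either.

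Differentiated epithelial cells of the stomach and intestine carry most of the secreted mucins and trefoil factors. Of 15 markers of such cells 0 rose, 3 fell and 12 stayed short of the threshold, with a median log2 change of 0.03. The 3 that fell were the brush border gene Vil1, the gastric protease gene Ctse and the proton pump gene Atp4a, each with non-overlapping groups. Progenitor genes of stomach and intestine that the study listed as higher from these arrays, such as Sox2, Pitx1, Cdx2 and Lgr5, are not among the 15. Fabp2, a fatty acid binding protein gene of enterocytes, had 3.60, 3.90 and 3.70 in wild type pools and 3.90, 4.46 and 4.26 in activated pools, with activated replicate 1 within the wild type range. Its log2 change of 0.47 (SE 0.15) did not pass (limma adjusted p = 0.0601), and it passed without activated replicate 1 (0.62, adjusted p = 0.0163) and with arrays centred on their medians (0.51, adjusted p = 0.0306). Fabp2 is a dim gene, with a mean in the lower quartile of all genes tested and its highest value on activated replicate 2. The mean of the 15 ranged from 5.43 to 5.57 in wild type and from 5.20 to 5.49 in activated pools. Of the 15 markers, 0 had a mean above the median of all genes. The gastrokine gene Gkn2 was at 6.80 in wild type replicate 1 and at 4.90 to 5.05 on the other arrays, which lifts the mean of that array. Proteins that are made or secreted with mucus, from the disulfide isomerase Agr2 to the gastrokines, gave 0 of 15 genes past the limma test in either direction, and 1 of the 15, Agr2, had an unadjusted p under 0.05. Agr2, which is needed to fold Muc2, had 5.04, 5.74 and 5.18 in wild type pools and 5.86, 5.82 and 5.50 in activated pools. The groups overlapped through wild type replicate 2, and the log2 change of 0.41 (SE 0.18, adjusted p = 0.184) became 0.62 with adjusted p = 0.0166 without that pool. With array weights 3 of these genes were higher and 1 was lower. Only 5 of these 15 genes have a mean above the lower quartile of all genes tested, and 0 above the median. Small changes of such dim genes could not be resolved.

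Among 11 transcription factors and stress sensors that drive mucous cell differentiation, 1 rose, 1 fell and 9 stayed short of the threshold, with a median log2 change of 0.05. Foxa1, a forkhead factor of gut endoderm, had a log2 change of 0.72 (SE 0.14, limma adjusted p = 0.00542), and Creb3l1, a membrane-bound factor that expands the secretory pathway, had -0.54 (SE 0.10, limma adjusted p = 0.00384). The goblet cell factor Spdef had 6.72, 6.48 and 6.80 in wild type and 6.55, 6.54 and 6.47 in activated pools, with a log2 change of -0.15 (SE 0.10). Atoh1, which starts the secretory lineage of the intestine, had 5.27, 4.96 and 5.33 in wild type and 5.44, 5.94 and 5.48 in activated pools. All activated pools lay above all wild type pools for Atoh1, and the log2 change of 0.43 did not pass (adjusted p = 0.0946). Over all genes tested, 30.9% had groups that did not overlap. Atoh1 has a mean in the lower quartile of all genes, and its highest value is on activated replicate 2. That array was the highest for 46.4% of the genes at or below this quartile. Spdef and Atoh1, like Fabp2, Gkn2, Prom1, Muc5b and the neighbours of Muc1 that did not pass, were named after their values were seen.

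The enzymes that attach and extend the sugar chains of mucins went both ways. Of 36 O-glycan enzymes 3 rose, 3 fell and 30 stayed short of the threshold, a called share of 16.7% beside the 14.1% of all genes, with a median log2 change of 0.01. Gcnt1, which branches O-glycans into the core 2 form, had 8.14, 8.22 and 8.34 in wild type pools and 6.76, 6.75 and 6.78 in activated pools, a 2.78-fold decrease (log2 change -1.47, SE 0.09, limma adjusted p = 4.09e-06). The activated pools lay within 0.03 of each other, far below all wild type pools. Among the transferases that add the first sugar, Galnt3 rose from values of 6.26, 6.07 and 5.95 to 7.28, 7.17 and 7.30, a 2.22-fold increase (log2 change 1.15, SE 0.11, adjusted p = 5.51e-05). Galnt12, of the same enzyme family, went the other way, from 6.89, 7.32 and 6.84 to 6.20, 6.39 and 6.23 (log2 change -0.74, SE 0.13, adjusted p = 0.00418). For both genes the groups did not overlap. Fut2, the fucosyltransferase that puts blood group H sugars on gut mucus, had a log2 change of 0.61 (SE 0.13, adjusted p = 0.0124), a call that was lost when every array row entered the fit (adjusted p = 0.0656). The others past the test, named after their values were seen, were C1galt1c1, the chaperone of the core 1 enzyme, at -0.59 (SE 0.12) and Galntl6 at 0.55 (SE 0.10). The core 1 enzyme gene C1galt1 itself had a log2 change of -0.12 (SE 0.11, adjusted p = 0.559).

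**Figure D4:**
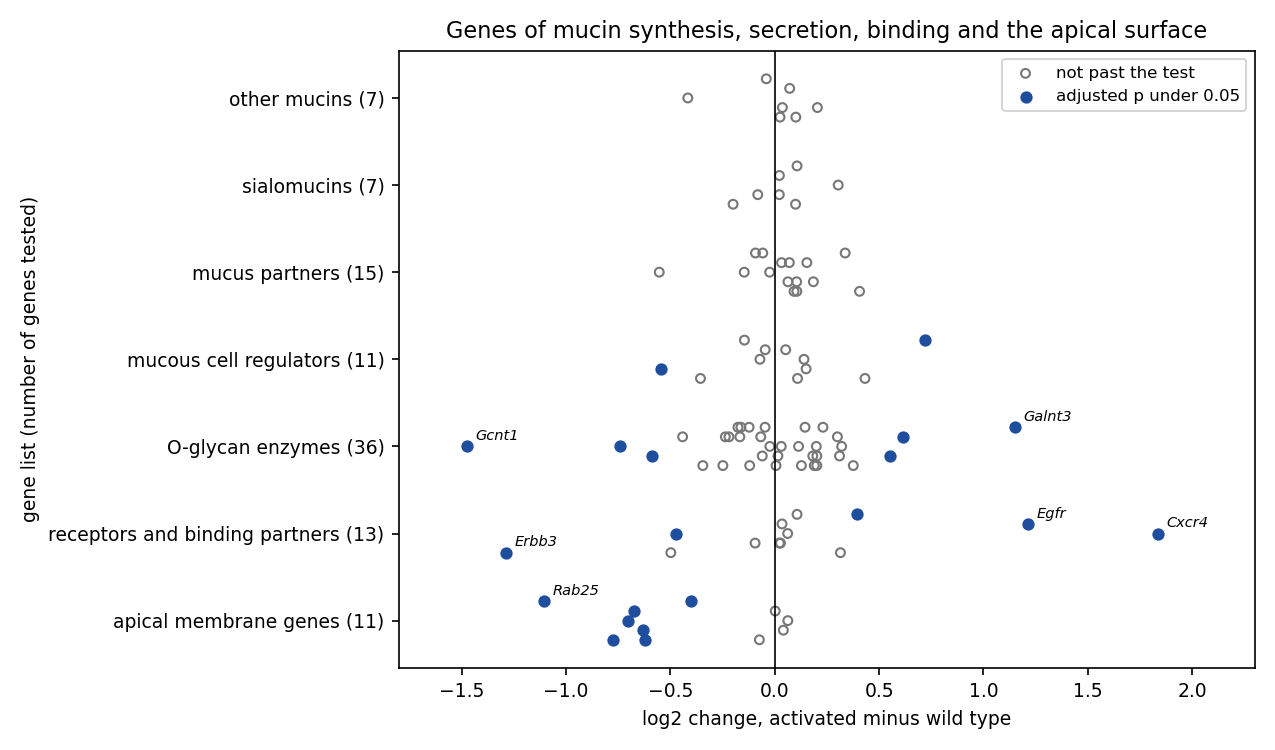
Log2 change (horizontal axis, activated minus wild type) of each tested gene in 7 lists related to mucins (vertical axis), with 1 point per gene, filled where the adjusted p from limma was under 0.05 and named where such a change was at least 1 in size. Apical membrane genes past the test all lie below 0, O-glycan enzymes and receptors past the test lie on both sides, and no point is filled among other mucins, sialomucins or mucus partners.

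Receptors and partners of mucins and trefoil factors included some of the larger changes. Of 13 genes 3 rose, 2 fell and 8 stayed short of the threshold, and the median log2 change was 0.04. Cxcr4, the chemokine receptor at which Tff2 can act, had 7.13, 7.39 and 7.02 in wild type pools and 8.98, 8.996 and 9.07 in activated pools, a 3.57-fold increase (log2 change 1.84, SE 0.11, limma adjusted p = 3.25e-06). Tff2 itself did not pass the test. Of the ErbB receptors that membrane mucins associate with, Egfr rose from 7.94, 7.63 and 8.09 to 9.16, 9.04 and 9.11 (log2 change 1.22, SE 0.12, adjusted p = 0.000112), and Erbb3 fell from 10.15, 10.04 and 9.86 to 8.83, 8.46 and 8.90 (log2 change -1.29, SE 0.13, adjusted p = 0.000125). The groups were apart for all 3 genes. Erbb2, the partner of Muc4, had a log2 change of 0.11 (SE 0.10, adjusted p = 0.597). Jup, the plakoglobin gene whose protein binds the tail of Muc1, had a log2 change of -0.47 (SE 0.10, limma adjusted p = 0.0107), a call that was lost without wild type replicate 1 (0.0505) and without activated replicate 1 (0.0544). Lingo2, a receptor for Tff3, had a log2 change of 0.39 (SE 0.10, limma adjusted p = 0.0286) and lost its call in 10 of 16 alternatives. Its mean lies in the lower quartile of all genes tested, and its highest value is on activated replicate 2. C1galt1, Erbb2 and Lingo2 were named after their values were seen.

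Mucin-like genes of other cells did not pass either. None of 7 sialomucin genes passed the limma test, and 1 of them, Emcn of endothelial cells, had an unadjusted p under 0.05. Its values were 10.49, 10.50 and 10.64 in wild type pools and 10.83, 10.93 and 10.78 in activated pools (log2 change 0.30, SE 0.09, adjusted p = 0.0583), and Emcn passed with arrays centred on their medians (adjusted p = 0.0363) and with array weights (adjusted p = 0.00856). Of 10 endothelial markers 2 were higher, with a median of 0.22 and a mean over the list of 8.68 to 8.87 in wild type and 8.91 to 9.05 in activated pools. These calls were Cdh5 at 0.32 (limma adjusted p = 0.0417) and Erg at 0.42 (0.0248), and they depended on single arrays. Without wild type replicate 3, activated replicate 1 or activated replicate 3, 0 of 10 markers were higher. With any other single array left out, 1 of 10 was higher. Without wild type replicate 1 that marker was Tie1 (limma adjusted p = 0.036), while Cdh5 (0.088) and Erg (0.056) both lost their calls. Muc16, a membrane mucin of the mesothelium, had 5.03, 5.79 and 5.76 in wild type pools and 5.17, 5.02 and 5.13 in activated pools, a log2 change of -0.42 (SE 0.18, adjusted p = 0.187). Wild type replicate 1 lay with the activated pools, and without it the change was -0.66 with adjusted p = 0.00419. Of 7 mesothelial markers 4 were lower, with a median of -0.49 and a list mean of 8.13 to 8.35 in wild type and 7.71 to 7.95 in activated pools, whose part in the values of Muc16 was not tested. The count was 2 without wild type replicate 2, wild type replicate 3 or activated replicate 1, in each of which Wt1 and Upk3b lost their calls. Both also lost them without wild type replicate 1, where the count was 3 because Gpm6a passed (limma adjusted p = 0.0277). Muc16 was 1 of 7 mucin genes outside the 10, of which 0 passed the test and 1, Muc16, had an unadjusted p under 0.05. These 7 are mostly dim, with 2 means above the lower quartile of all genes tested and 0 above the median.

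Other cell types that share the pools were followed by their markers. Of 19 mesenchymal markers 6 were higher and 3 lower (median 0.24), of 6 neural markers all 6 were lower (median -0.63), of 10 leukocyte markers 0 passed and 2, Mrc1 and Ptprc, had an unadjusted p under 0.05 (median 0.08, with 1 gene, Tyrobp, higher without activated replicate 2), and of 8 erythroid markers 1 was lower (median 0.04). Array medians ranged from 6.37 to 6.47 (log2) over all rows. Ctnnb1 had a log2 change of 0.28 (SE 0.11, adjusted p = 0.148), and since its row is 1 value for the whole transcript it does not show the loss of exon 3. The part of these cell types in the changes given above was not tested. Whether each list, the neural one included, marks only its own cell type in these pools was not tested either.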

How the data were processed

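Pancreata were pooled by genotype, and 3 pools per group were hybridized to 1 array each. The authors deposited log2 expression values, 1 row per transcript cluster, whose array medians lie close together. How the signals were background-corrected, normalized and summarized is not stated in the sources used here, and the labels name no batch. GEO's annotation table gave 21789 of 35556 rows a single symbol, 1621 several and 12146 none. Single-symbol rows were tested, and for the 999 genes with several, the row with the highest mean represented the gene. Entrez identifiers matched RefSeq for 21698 rows and changed 0 symbols.

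Activated and wild type pools were compared by limma's lmFit and eBayes functions (limma 3.58.1, R 4.3.3), without covariate or filter, with Benjamini-Hochberg adjustment over 19938 genes and a threshold of 0.05. Intervals are limma's 95% intervals, unadjusted. The number of arrays limits the precision. The p-values set each difference against the spread between 3 pools per group, which eBayes moderates with the spread of all genes tested. The spread between single pancreata was not measured. The step was tested on simulated data. Tables and figures used Python 3.11.15, pandas 2.3.3 and matplotlib 3.10.9.

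The 10 genes, the lists and the alternatives were chosen with earlier results of these data known. Genes to name were the 10 members, Ctnnb1, neighbours past the test and the 3 nearest profiles. Each list added up to 4 genes with the largest change past the test (or the smallest p where none passed). Not every gene that this rule allows is named. Genes outside it whose results are given were named after those results were seen. Of the lists, 36 of 37 O-glycan enzymes, 15 of 17 mucus partners, 7 of 11 other mucins and 19 of 20 epithelial markers were tested. Upstream sequences are from RefSeq (GRCm38.p6). Motifs were matched on both strands. Alternatives were a replicate block, each array left out, other scalings, level filters, other rows, priors, weights and thresholds. Same-numbered pools did not deviate together (correlations of 0.01, -0.15 and -0.05), so the numbers were not taken as pairs.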

Additional observations from a re-analysis of the deposited data

How the results depend on the processing

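Muc1 was lower and past the test in all 18 alternatives, with log2 changes from -3.15 to -2.81 and adjusted p up to 0.000266, and 1 of the 10 genes was lower in each of them. With array weights 7 endothelial markers, 6 O-glycan enzymes and 1 of the 10 members, Tff1, were higher, and in the other 17 alternatives 0 members were. The sign of small log2 changes turned for Muc2 without wild type replicate 1 (-0.0001), without activated replicate 1 (-0.012) and with arrays centred on the housekeeping genes (-0.003), and for Muc13 without wild type replicate 3 (-0.036), without activated replicate 1 (-0.086) and with that centring (-0.0072). It also turned for Muc4 without activated replicate 3 (0.021) and for Muc6 without activated replicate 2 (-0.104) and with array weights (-0.049). With each array left out, Muc2 ranged from -0.012 to 0.0945, Muc4 from -0.213 to 0.021, Muc6 from -0.104 to 0.129, Muc13 from -0.086 to 0.168, Muc5ac from 0.017 to 0.103, Muc20 from 0.0425 to 0.14, Tff1 from 0.123 to 0.252, Tff2 from 0.016 to 0.189 and Tff3 from -0.166 to -0.040, none past the test. Muc1 relative to the epithelial markers was lower with Cdh1, Epcam and Krt8 as the reference too (-1.67), and its difference ranged from -2.27 to -2.04 with each array left out. Over all genes, 751 were higher when every array row entered the fit, 3025 were higher and 2422 lower with array weights, and 723 were higher at an adjusted p under 0.01. With each array left out the number of higher genes ranged from 843 (without activated replicate 1) to 1328. With the replicate number as a block 1011 genes were higher and 1274 lower, and among the 10 members 1 was lower and 0 higher, as without the pairing. Under this block 0 of 10 endothelial markers and 1 of 15 gut markers, Fabp2, were higher, and 2 of 7 mesothelial markers were lower. Centring on medians gave 1615 higher and 1366 lower genes, on housekeeping genes 1007 and 1619. The cause of these differences was not tested. No scaling moved the median of all genes by 0.1 or more. With 3 arrays per group and no detection calls, small changes of dim genes could not be resolved.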
